A study of Mus musculus with 6 samples.

Results

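The light-strand mitochondrial tRNAs are the 8 tRNAs that the mouse mitochondrial genome encodes in the opposite direction to most of its genes. They are mt-Tp, mt-Te, mt-Ts1, mt-Ty, mt-Tc, mt-Tn, mt-Ta and mt-Tq, which carry proline, glutamate, serine, tyrosine, cysteine, asparagine, alanine and glutamine. They were taken by transcript identifier from a table of 1929 short transcripts and make up 8 of its 22 mitochondrial tRNAs. The other 14 lie on the heavy-strand transcript. All 8 were annotated as mitochondrial tRNAs on the minus strand.

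The table came from the upper small intestine (duodenum) of female mice fasted overnight. Wild-type C57Bl/6N mice were compared with mice heterozygous for the loss-of-function allele C57BL/6N-Polr3b<em7(IMPC)Tcp>/Tcp (Polr3b+/-), 3 libraries each, and no treatment differed between them. The allele is a germline frameshift, so all tissues carry it, and the heterozygotes keep 1 intact copy. Wild-type mice were bred from wild-type offspring of the line and Polr3b+/- mice from heterozygous offspring, each crossed with wild-type C57Bl/6N mice. Ages were not given in the sources used here. The product of Polr3b is part of RNA polymerase III (Pol III), and the study asked which short RNAs change when this enzyme is reduced.

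Pol III makes nuclear tRNAs but not mitochondrial ones. The mitochondrial genome is copied by its own polymerase into long transcripts that begin in the control region, 1 from each strand. The tRNAs are cut out of these transcripts by the mitochondrial RNase P at the 5′ end and by ELAC2 at the 3′ end. The light-strand transcript carries a single mRNA, mt-Nd6, a subunit of respiratory complex I, beside its 8 tRNAs.

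Along the light-strand transcript the order is mt-Tp, mt-Te, mt-Ts1, then the cluster mt-Ty, mt-Tc, mt-Tn and mt-Ta, and last mt-Tq. In GENCODE vM21 on GRCm38, mt-Tp lies at chrM:15356-15422 and meets its heavy-strand neighbour mt-Tt, the threonine tRNA, end to end at their 3′ ends. mt-Te lies at chrM:14071-14139 directly beside mt-Nd6, and mt-Ts1 at chrM:6870-6938, where it shares 3 bases with mt-Co1 of the other strand. The cluster runs through mt-Ty (chrM:5260-5326), mt-Tc (chrM:5192-5257), mt-Tn (chrM:5089-5159) and mt-Ta (chrM:5018-5086). Members of the cluster are 2 bases apart except for 32 bases between mt-Tn and mt-Tc, the place of the light-strand replication origin. mt-Tq lies at chrM:3772-3842 between the heavy-strand tRNAs mt-Ti and mt-Tm, and shares 3 bases with mt-Ti. Whether the authors' counting used strand was not given in the sources used here. Reads of the opposite strand can therefore not be told apart, in the shared bases or over the rest of a member.

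Sequences are shown for the 4 members on which the results turn: mt-Tp, the most abundant, mt-Te, the steadiest, mt-Ty, the least abundant, and mt-Tq, whose share separated the genotypes. They are given 5′ to 3′ as GENCODE vM21 writes them, with the anticodon in capitals and without the CCA tail, which is added after transcription.
mt-Tp: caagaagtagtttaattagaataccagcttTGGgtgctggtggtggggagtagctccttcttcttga
mt-Te: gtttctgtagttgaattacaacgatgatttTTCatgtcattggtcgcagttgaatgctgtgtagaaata
mt-Ty: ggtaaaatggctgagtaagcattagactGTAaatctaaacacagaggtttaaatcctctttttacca
mt-Tq: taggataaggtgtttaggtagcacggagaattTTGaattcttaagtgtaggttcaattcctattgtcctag

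The anticodon was found as the loop triplet that reads a codon of the gene's amino acid in the vertebrate mitochondrial code, inside a stem with 5 of 5 pairs. In the other members it is TGA in mt-Ts1, GCA in mt-Tc, GTT in mt-Tn and TGC in mt-Ta. The 8 tRNAs are 66 to 71 bases long. None of the 22 mitochondrial tRNAs matched another transcript of the table whose sequence was known (BLAST, E-value under 0.001). No near copy of a member was therefore found among these transcripts. The search did not cover longer transcripts, which were in the authors' index but not in the table. Whether reads of the members were shared with longer transcripts was not tested. Nuclear copies among the unnamed transcripts were not analysed here.

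The members also differ from the heavy-strand tRNAs in base composition, a property that is not independent of the choice by strand. All 8 hold more G than C, by 1.49 to 14.9 percentage points with a median of 8.89. Of the 14 heavy-strand tRNAs, 9 hold more C than G, 2 hold equal numbers and 3 hold more G, with a range of -7.46 to 4.41 points. Only mt-Ty, at 1.49, falls within the heavy-strand range, and the other 7 members lie above it. Their total GC content has a higher median, 35.6% against 31.8%. The members range from 33.3% to 44.8%, inside the heavy-strand range of 17.1% to 44.9% but above its median. These are properties of the sequences, given without a test.

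The deposited counts summed to 1719869 to 9771623 per library over all short transcripts, and DESeq2 size factors ran from 0.337 to 2.19. The heterozygous libraries are numbered in column order, since only their genotype was known from the labels and the column heads name another Pol III subunit. Wild-type replicate 1 was the shallowest and stood apart: mitochondrial tRNAs held 4.98% of its counts, against 7.57% to 20.1% in the other 5 libraries. The Polr3b mRNA is longer than the transcripts of this table, so the genotype labels could not be checked with it. No library was a copy of another of its genotype, since the smallest chi-square between libraries of 1 genotype over the 22 mitochondrial tRNAs was 21601 on 21 degrees of freedom. Libraries of different genotypes were not compared in this way. Of 9 miRNA hairpins that mark intestinal epithelium, all 9 had counts in at least 1 library. Counts were few: Mir192, the highest of them in every library, had 4 to 74, and Mir200a had 0 to 5. Together the 9 reached 5.23 to 37.3 CPM (scaled to the library's total in the table) in wild type and 9.24 to 15.9 in heterozygotes. A list of 2 smooth muscle hairpins reached 1.35 to 5.15 in wild type and 2.28 to 8.60 in heterozygotes. Hairpins of pancreas (3 of 4 in the table) summed to 0.269 to 2.33 CPM in wild type and 0.113 to 0.819 in heterozygotes. Those of blood and immune cells (2 of 5) summed to 0 to 0.581 in wild type and 0 to 3.38 in heterozygotes. Of these, Mir142 had 1, 0 and 0 counts in wild type against 6, 33 and 0 in heterozygotes. Mir122 of liver reached at most 0.113 CPM. The part of these cell types in the results below was not tested.

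The first measurement was the level of each member beside the others. To compare tRNAs of different length, counts were divided by length and given as a percentage of the same quantity summed over all 22 mitochondrial tRNAs (the per-base share). How evenly different tRNAs were recovered in the libraries was not tested. A level of 1 tRNA beside another is therefore a level of counts and not an amount of RNA. mt-Tp had the highest mean of the 8 over the 6 libraries, at 9.05%, followed by mt-Ta at 6.99%, mt-Te at 5.90%, mt-Tn at 5.27%, mt-Tc at 5.23%, mt-Tq at 3.52%, mt-Ts1 at 2.82% and mt-Ty at 1.37%. mt-Ty was the lowest member in 6 of 6 libraries, and mt-Tp the highest in 5 of 6. The order did not follow the position along the transcript, since levels fell from mt-Tp to mt-Ty and were higher again at mt-Tc, mt-Tn and mt-Ta.

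Most neighbours in this order were close. mt-Tn exceeded mt-Tc in 3 of 6 libraries, so their order was not resolved. In the other pairs the higher tRNA led in 5 of 6 libraries, except that mt-Ts1 led mt-Ty in all 6. The differences in mean between mt-Te and mt-Tn, between mt-Tc and mt-Tq and between mt-Tq and mt-Ts1 were also smaller than the larger SD over libraries, which was 1.49 for mt-Tn, 1.87 for mt-Tc and 1.1 for mt-Ts1.

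**Figure D1:**
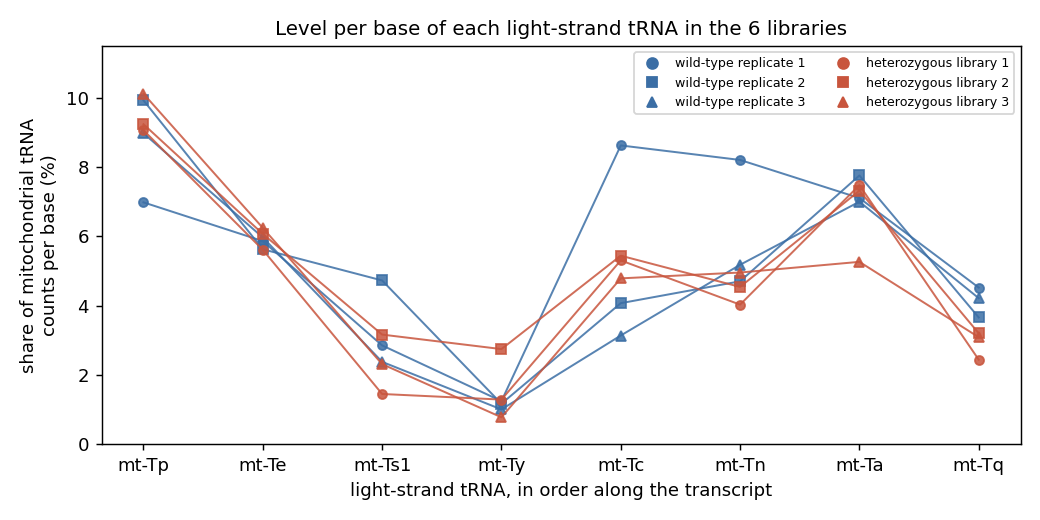
Per-base share (% of mitochondrial tRNA counts per base, y axis) of the 8 tRNAs in their order along the light-strand transcript (x axis), with 1 line per library joining its values, blue for wild type and red for heterozygotes. In 5 libraries mt-Tp is the highest, while in wild-type replicate 1 mt-Tc (8.63%) and mt-Tn (8.21%) lie above it (6.98%).

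Wild-type replicate 1 was the library with a different order. There mt-Tc, mt-Tn and mt-Ta were the highest members, and mt-Tp came after them. The Spearman correlation of the 8 per-base shares between this library and the others was 0.31 to 0.619. Among the other 5 libraries it was 0.833 to 1, whether they were of the same genotype or not. These coefficients describe 8 tRNAs that share their libraries, so no p-value is given.

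The members also differed in how steady they were. mt-Te, the glutamate tRNA, held 5.61% to 6.25% of the per-base total in every library, a 1.11-fold range and the narrowest of the 22 mitochondrial tRNAs. mt-Tp and mt-Ta varied 1.45-fold and 1.47-fold. mt-Ty and mt-Ts1 varied 3.53-fold and 3.26-fold, and mt-Tc 2.75-fold. For mt-Tc and mt-Tn the width came largely from 1 library: without wild-type replicate 1 the range of the share of counts was 1.74-fold in place of 2.73-fold for mt-Tc and 1.28-fold in place of 2.02-fold for mt-Tn.

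The second question was whether the amount of these tRNAs differed between genotypes. No member passed the DESeq2 threshold (adjusted p-value under 0.1 over all transcripts), against 17 of the 734 transcripts tested in the table, or 2.32%. None of the 8 was at an unadjusted p-value under 0.05 in DESeq2, and none in the quasi-likelihood test of edgeR, which called 0 of 577 transcripts, or 0%, with 19 at an unadjusted p-value under 0.05. All 8 passed the filters on low counts, with at least 1045 counts in every library. The normalised counts (counts divided by the library's size factor) overlapped between genotypes in all 8, whereas 9.42% of 626 transcripts with mean counts of 10 or more did not overlap. The log2 fold change was above 0 in 4 members and below 0 in 4, with a median of -0.04, the same as the median of -0.04 over all tested transcripts. Of the 14 heavy-strand tRNAs, 0 were called in either direction, and their median was 0.15. The mitochondrial mRNAs under 300 bases, mt-Atp8 and mt-Nd4l, were not called either, at log2 fold changes of -0.32 (SE 0.79) and 0.68 (SE 1.41). In bulk tissue, fewer cells of a type or fewer mitochondria cannot be told apart from less RNA in each.

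The 2 tRNAs nearest the start of the light-strand transcript had almost equal means in both genotypes. mt-Tp had 5864, 80559 and 56995 counts in wild-type replicates 1 to 3 against 127521, 67576 and 26967 in heterozygous libraries 1 to 3. After division by the size factors these were 17406, 70465 and 47522 in wild type against 61194, 30801 and 50086 in Polr3b+/- mice. All 3 heterozygous values lay inside the wild-type range. The log2 fold change was 0.07 with a 95% interval of -1.35 to 1.49 (SE 0.72, DESeq2 adjusted p = 1), and -0.36 when counts were scaled by the library total.

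mt-Te had 5071, 47037 and 39029 counts in wild type against 81331, 45741 and 17142 in Polr3b+/- mice. Its normalised count was 29579 ± 13296 in wild type against 30572 ± 9156 in Polr3b+/- mice (SD, n = 3 each). The heterozygous libraries again lay inside the wild-type range. The difference on the log2 scale was 0.05, with an interval of -1.17 to 1.26 (SE 0.62, DESeq2 adjusted p = 1), and again -0.36 when scaled by the library total.

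mt-Ts1, the serine tRNA for UCN codons, had the lowest log2 fold change of the 8. It had 2468, 39514 and 15548 counts in wild type against 21017, 23845 and 6347 in Polr3b+/- mice. Normalised, these were 7326, 34563 and 12964 against 10085, 10869 and 11788. The heterozygous libraries were close together and within the wild-type range, while wild-type replicate 2 was the highest of all. The log2 fold change of -0.74 had an interval of -2.21 to 0.72 (SE 0.75, DESeq2 adjusted p = 1). It rested on wild-type replicate 2, without which it was 0.13, and it was -1.1 without wild-type replicate 1 (DESeq2 adjusted p = 0.391).

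In the cluster, mt-Ty had the highest log2 fold change of the 8. Its counts were 1045, 9493 and 6377 in wild type against 18137, 20088 and 2072 in Polr3b+/- mice, or 3102, 8304 and 5317 against 8703, 9156 and 3848 after normalisation. Heterozygous libraries 1 and 2 were above every wild-type library, and library 3 was below 2 of them. The fitted log2 fold change was 0.38, with an interval of -0.93 to 1.69 (SE 0.67, DESeq2 adjusted p = 1).

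mt-Tc, which lies next to mt-Ty, had 7135, 32549 and 19627 counts in wild type against 73541, 39219 and 12570 in Polr3b+/- mice. Heterozygous library 1 was the highest of the 6 after normalisation and the others overlapped with wild type. The normalised count was 22005 ± 6095 in wild type against 25504 ± 8905 in Polr3b+/- mice (SD, n = 3 each). The fold change on the log2 scale was 0.21 with an interval of -0.81 to 1.24 (SE 0.52, DESeq2 adjusted p = 1). Its direction followed the scaling, as it was -0.09 with size factors taken over the heavy-strand tRNAs or with the library total.

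mt-Tn, across the replication origin from mt-Tc, had 7303, 40441 and 34846 counts in wild type against 60088, 35202 and 14001 in Polr3b+/- mice. Its normalised count was 28702 ± 6855 in wild type against 23628 ± 6718 in Polr3b+/- mice (SD, n = 3 each). Only heterozygous library 2 was below every wild-type library. On the log2 scale the fold change was -0.28, with an interval of -1.24 to 0.67 (SE 0.49, DESeq2 adjusted p = 1).

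mt-Ta had 6146, 64834 and 45773 counts in wild type against 108365, 55137 and 14450 in Polr3b+/- mice, or 37706 ± 19238 and 34657 ± 15045 after normalisation (SD, n = 3 each). The heterozygous values lay inside the wild-type range. The difference on the log2 scale was -0.12, with an interval of -1.46 to 1.22 (SE 0.68, DESeq2 adjusted p = 1), and it was 0.32 without wild-type replicate 2.

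mt-Tq, the last tRNA on the light-strand transcript, had 4024, 31465 and 28361 counts in wild type against 36377, 24826 and 8725 in Polr3b+/- mice. Normalised, these were 11944, 27523 and 23647 against 17456, 11316 and 16205. The genotypes overlapped through wild-type replicate 1, the lowest wild-type library. The fitted log2 fold change was -0.49, with an interval of -1.57 to 0.59 (SE 0.55, DESeq2 adjusted p = 1). It was below 0 in each of the 13 alternatives, from -0.90 with the library total as the scaling to -0.23 without wild-type replicate 2, and adjusted p-values from DESeq2 and edgeR ran from 0.434 to 1.

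**Figure D2:**
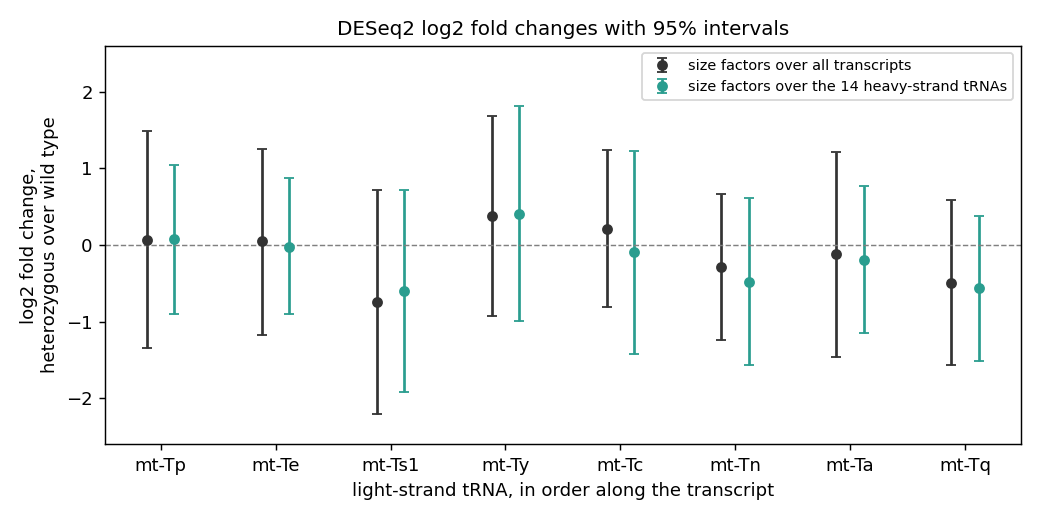
DESeq2 log2 fold change of heterozygous over wild type (y axis) for the 8 tRNAs in their order along the transcript (x axis), with size factors over all transcripts (black) or over the 14 heavy-strand tRNAs (green). Points are estimates and bars 95% intervals, and every interval crosses 0, for example -1.57 to 0.59 for mt-Tq with all transcripts.

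Libraries of 1 genotype differed several-fold in their mitochondrial tRNA content. With size factors over the 14 heavy-strand tRNAs the interval was -0.90 to 0.87 for mt-Te, -0.90 to 1.05 for mt-Tp and -1.51 to 0.38 for mt-Tq. A difference of 2-fold in either direction was therefore outside the interval for mt-Te under this scaling, and within it for every other member in at least 1 direction.

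The third measurement was each tRNA as a share of all mitochondrial tRNA counts, which does not depend on the depth of a library or its mitochondrial total. Together the 8 held 45.6%, 42.2% and 38.4% of the mitochondrial tRNA counts in wild-type replicates 1 to 3, against 37.1%, 42.2% and 38.1% in Polr3b+/- libraries 1 to 3. The means were 42.0% ± 3.63 and 39.1% ± 2.69 (SD, n = 3 each), and the genotypes overlapped. The difference was -0.10 on the log2 scale (exact permutation test, two-sided, p = 0.2), in a design whose smallest p is 0.1. It was smaller without mt-Tr, the heavy-strand arginine tRNA, at -0.07 (exact permutation test, p = 0.5). mt-Tr held 6.96% of the mitochondrial tRNA counts in heterozygous library 1 and 0.815% to 1.75% in the other libraries, and it lowers the shares of all others there. Without wild-type replicate 1 the difference was -0.04.

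As a share of all counts in the table, the light-strand tRNAs made up 2.27%, 8.48% and 6.64% in wild type against 5.94%, 3.19% and 3.32% in Polr3b+/- mice. Wild-type replicate 1 was the lowest library and the other wild-type replicates the highest. The difference of -0.34 on the log2 scale was within the spread (exact permutation test, two-sided, p = 0.7), and it was -0.92 without wild-type replicate 1 and 0.03 without wild-type replicate 2. Per nuclear tRNA count, the light-strand tRNAs stood at 0.079, 0.323 and 0.324 in wild type against 0.157, 0.102 and 0.102 in Polr3b+/- mice, which also overlapped (exact permutation test, two-sided, p = 0.4).

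**Figure D3:**
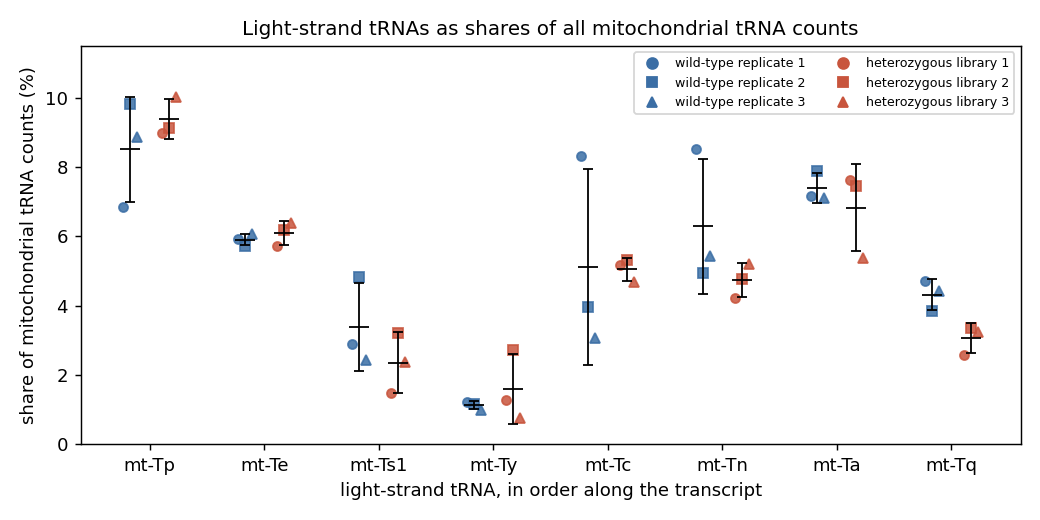
Share of the mitochondrial tRNA counts (%, y axis) of the 8 tRNAs (x axis), with 1 symbol per library, blue for wild type and red for heterozygotes. Black bars give the mean and SD of 3 libraries. Only for mt-Tq do the genotypes not overlap, with 3.84% to 4.70% in wild type and 2.56% to 3.36% in heterozygotes.

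Of the 8 members, 1 had a share that did not overlap between genotypes. For comparison, the count relative to the mitochondrial tRNA total did not overlap in 29 of these 626 transcripts, or 4.63%, and was lower in Polr3b+/- libraries in 17, or 2.72%. Most of these transcripts are not mitochondrial tRNAs, and dividing by the same total gives them a shared pattern over libraries. The percentages are therefore not a chance rate for the members. By labels alone a transcript separates with probability 0.1, the smallest p of this design. Of the 22 mitochondrial tRNAs, 1 did not overlap in share. That member was mt-Tq. It held 4.70%, 3.84% and 4.41% of the mitochondrial tRNA counts in wild type against 2.56%, 3.36% and 3.25% in Polr3b+/- mice. Every heterozygous library was below every wild-type library. The means were 4.32% ± 0.44 and 3.06% ± 0.43 (SD, n = 3 each), a difference of -0.50 on the log2 scale. Its p was the smallest this design allows (exact permutation test, two-sided, p = 0.1) and mt-Tq was 1 of 8 members compared. Adjusted over the 8 members (Benjamini-Hochberg on the permutation test), it was 0.8. None of the 14 heavy-strand tRNAs had a share that separated the genotypes. The heavy-strand phenylalanine tRNA mt-Tf had a larger log2 difference in share, -0.82, with overlap. It was also the only mitochondrial tRNA whose normalised counts did not overlap between genotypes, and they were lower in Polr3b+/- mice. A lower level is therefore not particular to mt-Tq.

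The shares of mt-Tq also did not overlap per base, against the heavy-strand tRNAs, without mt-Ti or mt-Tr, and against the geometric mean of the mitochondrial tRNAs. These variants hold the same mt-Tq counts over related denominators, so they are not separate evidence. With the heavy-strand tRNAs as the denominator mt-Tn did not overlap either, nor did mt-Te without mt-Tr. Leaving out 1 library cannot make groups overlap that do not, so it does not bear on mt-Tq. It ended the overlap of each other member except mt-Ta in at least 1 case, namely mt-Tp and mt-Tn without wild-type replicate 2, mt-Te without heterozygous library 1, mt-Ts1 without library 2, and mt-Ty and mt-Tn without library 3. Without wild-type replicate 1, mt-Tc also separated, with a mean share of 3.51% in wild type against 5.06% in Polr3b+/- mice, while with that library its wild-type mean was 5.12%. Fewer libraries separate more easily by chance. The percentage of all transcripts without overlap is not given for these settings, so these cases are not read as differences between genotypes.

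The other members overlapped in share. mt-Ts1 held 2.88%, 4.82% and 2.42% in wild type against 1.48%, 3.23% and 2.36% in Polr3b+/- mice, a log2 difference of -0.53 (exact permutation test, two-sided, p = 0.4). mt-Tn held 8.53%, 4.93% and 5.42% in wild type against 4.23%, 4.76% and 5.21% in Polr3b+/- mice, a log2 difference of -0.37 (exact permutation test, two-sided, p = 0.2). Its highest value was in wild-type replicate 1. For mt-Tp, mt-Te, mt-Ty, mt-Tc and mt-Ta the log2 differences ran from -0.13 to 0.31 with exact permutation p-values of 0.4 to 0.9. Counting error was small beside the spread between libraries: the 95% Wilson interval of a member's share reached no more than 0.189 points on either side. It holds for counting error alone, because the reads carried no molecular identifiers.

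mt-Tq was then set against the heavy-strand tRNAs on either side of it, a comparison chosen after its share had been seen and given without a test. Per base, mt-Tq stood at 0.440, 0.422 and 0.408 of mt-Ti, the isoleucine tRNA, in wild type against 0.285, 0.338 and 0.400 in Polr3b+/- mice. It stood at 3.54, 3.73 and 3.75 times mt-Tm, the methionine tRNA, in wild type against 1.75, 1.80 and 2.93 times in Polr3b+/- mice. Neither ratio overlapped between genotypes, and the wild-type replicates differed little among themselves, replicate 1 included. Lower ratios without overlap were found in 13 of 626 transcripts (2.08%) relative to mt-Ti and in 58 (9.27%) relative to mt-Tm. Most of these transcripts are not mitochondrial tRNAs, so these percentages are not a chance rate for mt-Tq. Both ratios hold the same mt-Tq counts, so they are not separate evidence.

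The other members next to a heavy-strand tRNA did not separate the genotypes in this way. The ratio of mt-Tp to mt-Tt per base was 1.33, 1.95 and 1.65 in wild type against 1.65, 1.55 and 1.98 in Polr3b+/- mice. That of mt-Ts1 to mt-Td, the aspartate tRNA, was 0.934, 0.699 and 0.332 against 0.266, 0.733 and 0.318. mt-Ta stood at 8.88, 18.1 and 9.04 times mt-Tw, the tryptophan tRNA, in wild type against 11.1, 9.54 and 8.60 times in Polr3b+/- mice. These pairs lie side by side on opposite strands, and their counts per base differed up to 18.1-fold.

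**Figure D4:**
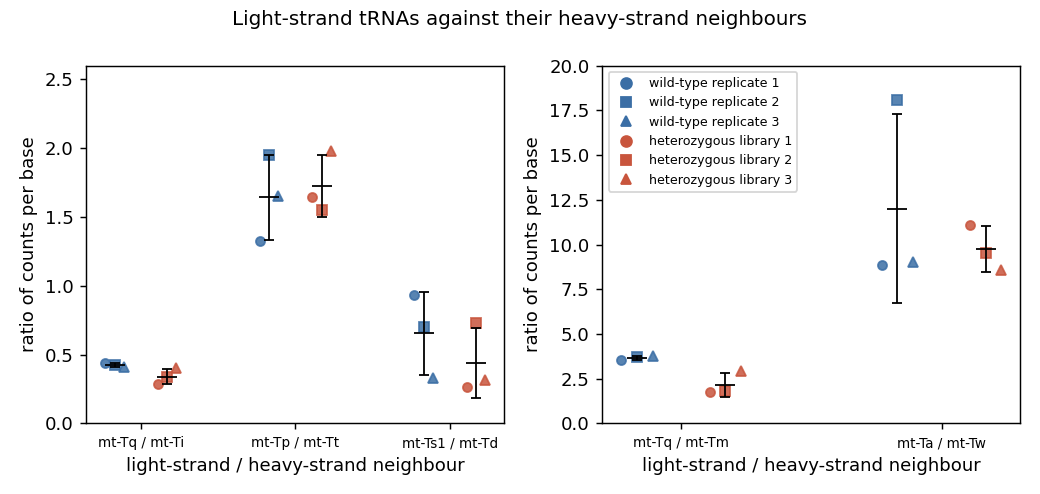
Ratio of counts per base (y axis) of a light-strand tRNA to a neighbouring heavy-strand tRNA (x axis) on 2 scales, with 1 symbol per library, blue for wild type and red for heterozygotes, and black bars for the mean and SD of 3 libraries. The ratios of mt-Tq to mt-Ti and to mt-Tm are lower in every heterozygous library, for mt-Tm 1.75 to 2.93 against 3.54 to 3.75.

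Levels within the cluster also varied from library to library. The tRNAs for alanine, asparagine, cysteine and tyrosine together held 55.4%, 42.6% and 43.2% of the light-strand counts in wild type against 49.4%, 48.0% and 42.1% in Polr3b+/- mice. mt-Tc stood per base at 3.12 to 6.93 times its neighbour mt-Ty in wild type and at 1.98 to 6.16 times in Polr3b+/- libraries. Across the replication origin, mt-Tn stood at 0.951, 1.16 and 1.65 times mt-Tc in wild type against 0.760, 0.834 and 1.04 times in Polr3b+/- mice. In each of these 3 measures the genotypes overlapped.

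Outside the 8, the transcripts whose level was most like their sum were all heavy-strand tRNAs. Over the 6 libraries, Pearson correlations of log2 normalised counts with the summed light-strand tRNAs were highest for mt-Tt (0.969), mt-Ti (0.960) and mt-Tk, the lysine tRNA (0.953), among 368 named transcripts with mean counts of 10 or more. These transcripts share their libraries and size factors with the members, so the values are a description. Among the members themselves, mt-Te (0.972), mt-Ta (0.967) and mt-Tp (0.964) were closest to the sum, of which they are part, and mt-Ty (0.549) and mt-Tc (0.602) were the least like it. With the summed heavy-strand tRNAs, of which they are not part, mt-Te (0.997) and mt-Tp (0.984) correlated more closely still. mt-Ta did not (0.931). The closeness of mt-Te and mt-Tp is therefore not particular to the light strand.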

How the data were processed

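Size-selected short RNA was demethylated by the authors and sequenced in paired ends. Reads were trimmed (Cutadapt) and assigned by Salmon to an all-RNA mouse index (GRCm39), and sequences under 300 bases were kept. The values deposited by the authors are estimated counts (expected counts), rounded and unscaled, and were used unchanged. Nothing says how far the 3 libraries of a genotype were prepared separately, so p-values measure the spread between libraries. The columns not named wild type were assigned to the heterozygous group as the only one left. All 22 mitochondrial tRNAs matched GENCODE vM21 (GRCm38) by identifier and version, and coordinates are on GRCm38.

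Following the methods of the study, DESeq2 1.42.0 (median-of-ratios size factors, Wald test, adjusted p-value under 0.1) was fitted to all 1929 transcripts. The alternative was the quasi-likelihood test of edgeR 4.0.16 (TMM, filterByExpr) in R 4.3.3. Both were tested on simulated data. Intervals are 95% Wald intervals. Shares were compared by exact permutation over the 20 assignments of 6 libraries. Likeness used log2 of the normalised count plus 1. Other alternatives changed scaling, filters, denominators and libraries. The rule named all 8 members, their neighbours, the most abundant mitochondrial tRNA and the 3 annotated transcripts most like the members' sum. mt-Tr, mt-Tf, mt-Atp8 and mt-Nd4l were named after their values were seen. Members, lists and tests were chosen with earlier results of these data known.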

Additional observations from a re-analysis of the deposited data

How the results depend on the processing

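No light-strand tRNA was called by DESeq2 or edgeR under any of the 13 alternatives, and the smallest adjusted p-value was 0.391 (DESeq2, mt-Ts1 without wild-type replicate 1). The difference in their summed share of mitochondrial tRNA counts was below 0 in each alternative, from -0.17 to -0.04 when libraries were left out. The difference in their share of all counts ran from -0.92 to 0.03 when libraries were left out. The number of members whose share did not overlap between genotypes was 2 with the heavy-strand tRNAs as the denominator, 2 without mt-Tr (chosen after seeing the data), and 1 to 3 without 1 library. The percentage of all transcripts without overlap is not given for these settings, so the numbers have no background beside them. mt-Tq was among these members with each denominator, but the denominators are applied to the same mt-Tq counts and are not separate evidence. Leaving out a library cannot remove it.

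With the library total as the scaling, which moved the median of all tested transcripts from -0.04 to -0.48, the log2 fold change turned to -0.36 for mt-Tp, -0.36 for mt-Te and -0.09 for mt-Tc. With size factors over the heavy-strand tRNAs, which moved that median to -0.26, it turned to -0.02 for mt-Te and -0.09 for mt-Tc. Without single libraries it ran from -0.30 to 0.56 for mt-Tp, -0.25 to 0.38 for mt-Te, -1.1 to 0.13 for mt-Ts1, -0.54 to 0.32 for mt-Ta and -0.09 to 0.47 for mt-Tc. The cause was not tested. No paired analysis was possible because the heterozygous columns carry no replicate number from the labels.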
